A study of Ovis aries with 3 samples.

Results

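Transcripts of lysosomal proteases and of the inhibitors that hold proteases in check were examined in extracellular vesicles shed by sheep conceptuses. The members were chosen by name. They were the rows of the deposited table whose symbol is that of a cathepsin, a cystatin, a serpin, a tissue inhibitor of metalloproteinases (TIMP), or a serine protease inhibitor of the Kazal (SPINK) or Kunitz (SPINT) type. The rule took 62 of 25197 rows, namely 12 cathepsins, 6 cystatins, 28 serpins, 3 TIMPs and 13 SPINK or SPINT genes. All 3 libraries belonged to 1 group, vesicle RNA from intact ovine conceptuses (the embryo with its membranes) of day 14 of pregnancy, and no control group was analysed here. Each conceptus spent 24 h in its own dish in 10 ml of medium with 10% exosome-depleted fetal bovine serum, so the serum of another species was present. No label links a given library to a given ewe or conceptus, and any p-value measures only the spread between libraries, which may be technical.

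Cathepsins are proteases that work mostly in the acidic lysosome, and some are secreted and digest extracellular matrix. Cystatins block the cysteine cathepsins by occupying their active site. Serpins mostly trap serine proteases in an irreversible complex, TIMPs inhibit matrix metalloproteinases, and SPINK and SPINT proteins inhibit trypsin-like serine proteases. In the sheep uterus, cathepsin L and cystatin C are known as endometrial products of early pregnancy, when the elongating conceptus lies against the uterine lining.

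Values are on an RPKM-type scale, that is, reads scaled for gene length and library depth, and are rounded to 1 decimal. They summed to 17480.7, 40060.3 and 9531.8 in libraries 1, 2 and 3, whereas the depth read from the steps of U6 RNA rows was 1.28 and 1.21 times that of library 2 in libraries 1 and 3. Detected here means that each of the 3 libraries gave the gene at least 1 on this scale. As a measure of background, the 99th percentile of 476 olfactory receptor rows was 1.45, 1.025 and 1.75 in libraries 1, 2 and 3. Of 19 trophectoderm marker rows, 3 were detected (15.8%, against 3.89% of all rows). These 3 were the keratin KRT8, the interferon tau row TP-1 and the calcium-binding S100G.

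CST6 was detected, and no other member was. This gene encodes cystatin E/M, a secreted inhibitor that in human skin restrains cathepsins V and L and the lysosomal protease legumain. The count of 1 in 62 members (1.61%) stood against 3.89% of all rows, and no test was made of this difference. A further 3 members, TIMP2, SPINT2 and CTSV, reached a value of 1 in exactly 2 libraries (4.84%, against 5.13% of all rows). With CST6 this made 4 members at 1 in at least 2 libraries (6.45%, against 9.02% of all rows). Another 5 did so in exactly 1 library (8.06%, against 8.91% of all rows), and 53 stayed below 1 in every library, with 0.9 as their highest value. In all, 9 members reached 1 in at least 1 library (14.5%, against 17.9% of all rows). By library, 3 members reached 1 in library 1 (4.84%, against 9.37% of all rows), 8 in library 2 (12.9%, against 13.6%) and 3 in library 3 (4.84%, against 7.88%). Of the members, 14 were listed at 0 in all 3 libraries (22.6%, against 21.6% of all rows). The median of the 62 members was 0.1, 0.1 and 0 in libraries 1, 2 and 3, against 0.1 in each library for all rows. Without replicate 1 the detected members were CST6 and CTSV, 2 in number (5.06% of all rows then met the rule), and without replicate 3 they were 3, namely CST6, TIMP2 and SPINT2 (7.29% of all rows).

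**Figure D1:**
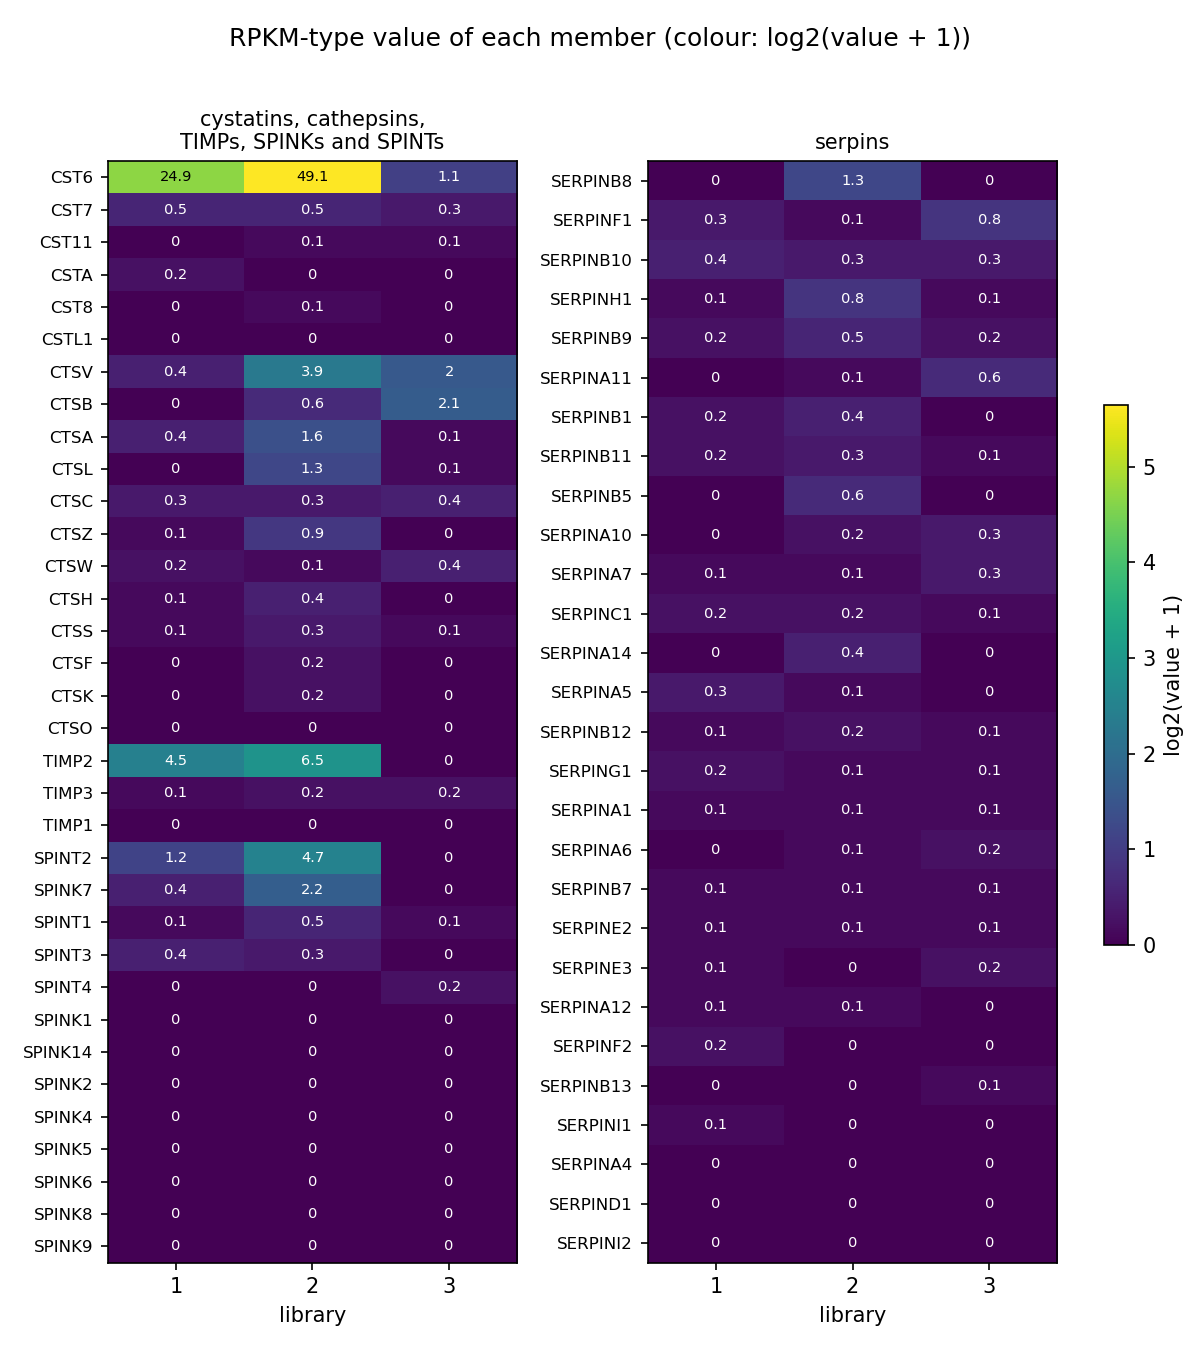
RPKM-type value of each of the 62 members (rows) in libraries 1 to 3 (columns), with the value printed in each cell and the colour giving log2(value + 1). CST6 stands out at 24.9 and 49.1 in libraries 1 and 2, and 53 members stay below 1 in every library. The other 9 reach 1 in at least 1 library (14.5%, against 17.9% of all rows).

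CST6 (ENSOARG00000001346) stood at 24.9, 49.1 and 1.1 in libraries 1, 2 and 3, with a mean of 25.0 ± 24.0 (SD, n = 3). The gene was high in libraries 1 and 2 and at the detection limit in library 3. Without replicate 2 the mean was 13.0. By rank among all rows, CST6 was 94th in library 1, 121st in library 2 and 1666th in library 3. In library 3 its value of 1.1 lay below the olfactory receptor percentile of 1.75 and would stand for 2.46 reads if the gene had the length of U6, and for more if it was longer. The CST6 value in library 2 was 44.6 times that in library 3, and in library 1 it was 22.6 times that in library 3.

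The summed value of library 3 was also the lowest, so shares of each library's summed value were compared. CST6 made up 0.142%, 0.123% and 0.0115% of libraries 1, 2 and 3. Its share was thus similar in libraries 1 and 2, and was 12.3 times as large in library 1 and 10.6 times as large in library 2 as in library 3. On the log2 scale, with no pseudocount, the share of CST6 in library 3 over its mean share in libraries 1 and 2 was -3.52, against a median of 0.57 over the 981 detected rows. One of those rows lay lower, ENSOARG00000006720, an uncharacterized protein at 28.5, 81.2 and 1.1. Detection itself requires a value of 1 in library 3, so genes lost from that library are not among the 981. Of the 1838 rows at 1 or more in both libraries 1 and 2, whatever their value in library 3, 369 (20.1%) had a lower ratio than CST6. At limits of 10 and 20, chosen after the values were seen, 5 of 180 rows (2.78%) and 2 of 111 rows (1.8%) did. The 2 rows at the limit of 20 were ENSOARG00000006720 and ENSOARG00000012115, also an uncharacterized protein, which stood at 24.3, 54.4 and 0.2. The limit of 10 added IFI6 (18.8, 47 and 0), FST (12.2, 34.2 and 0.1) and EMB (10.9, 27.4 and 0). In such bulk preparations, fewer vesicles from a kind of cell and less of the transcript per vesicle or per cell cannot be told apart.

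Markers of the uterine epithelium, the maternal tissue that secretes several protease inhibitors, also had their lowest summed share in library 3. From library 1 to library 2 their summed share rose, whereas the share of CST6 did not. Of 19 uterine epithelial rows, which include SERPINA14, 3 were detected (15.8%, against 3.89% of all rows). The values of the 19 rows summed to 41.3, 134 and 11.7 in libraries 1, 2 and 3. This was 0.236%, 0.334% and 0.123% of the summed value, and 4, 1 and 8 rows were at 0. LGALS15, a galectin of the uterine lumen, took 0.108%, 0.185% and 0.0472%, the ion transport regulator FXYD4 took 0.0595%, 0.0754% and 0.0189%, and the growth factor binding protein IGFBP1 took 0.032%, 0.0332% and 0.0231%. Their log2 share ratios of library 3 to libraries 1 and 2 were -1.63, -1.84 and -0.50, and 203 of the 981 detected rows lay below IGFBP1. SERPINA14, the uterine serpin or uterine milk protein made by endometrial glands, was at 0, 0.4 and 0. The 19 trophectoderm rows took 0.235%, 0.464% and 0.432% of the summed value. Most of this was KRT8, which alone took 0.15%, 0.347% and 0.286%, so the list's share largely followed 1 keratin. The 16 mesenchyme marker rows took 0.0326%, 0.0235% and 0.0136%, which was also lowest in library 3. The part of any of these lists in the CST6 values was not tested.

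The remaining named cystatins were low. CST7 (cystatin F, of immune cells) stood at 0.5, 0.5 and 0.3, CSTA (stefin A, of epidermis and leukocytes) at 0.2, 0 and 0, and CST11 at 0, 0.1 and 0.1. CST8 was at 0, 0.1 and 0, and CSTL1 was listed at 0 in all 3 libraries. CST6 made up 97.3%, 98.6% and 73.3% of the summed value of the 6 cystatin rows in libraries 1, 2 and 3.

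The table also held cystatin rows that have only an identifier, which the name rule did not take and which were singled out after their values were seen. The row described as cystatin-B, the intracellular inhibitor also called stefin B (ENSOARG00000011405), stood at 5.6, 21 and 3.2, a mean of 9.93 ± 9.66 (SD, n = 3). The row of the cystatin C precursor, a secreted inhibitor of many tissues (ENSOARG00000006202), stood at 2.7, 20.6 and 1.9, a mean of 8.40 ± 10.6 (SD, n = 3). Both met the detection rule, with the highest value in library 2. Their shares of the summed value were 0.032%, 0.0524% and 0.0336% for cystatin B, and 0.0154%, 0.0514% and 0.0199% for cystatin C. For both, library 3 thus lay between libraries 1 and 2, whereas for CST6 it lay below them. A row described as cystatin 9-like was at 0.3, 0 and 0.1.

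**Figure D2:**
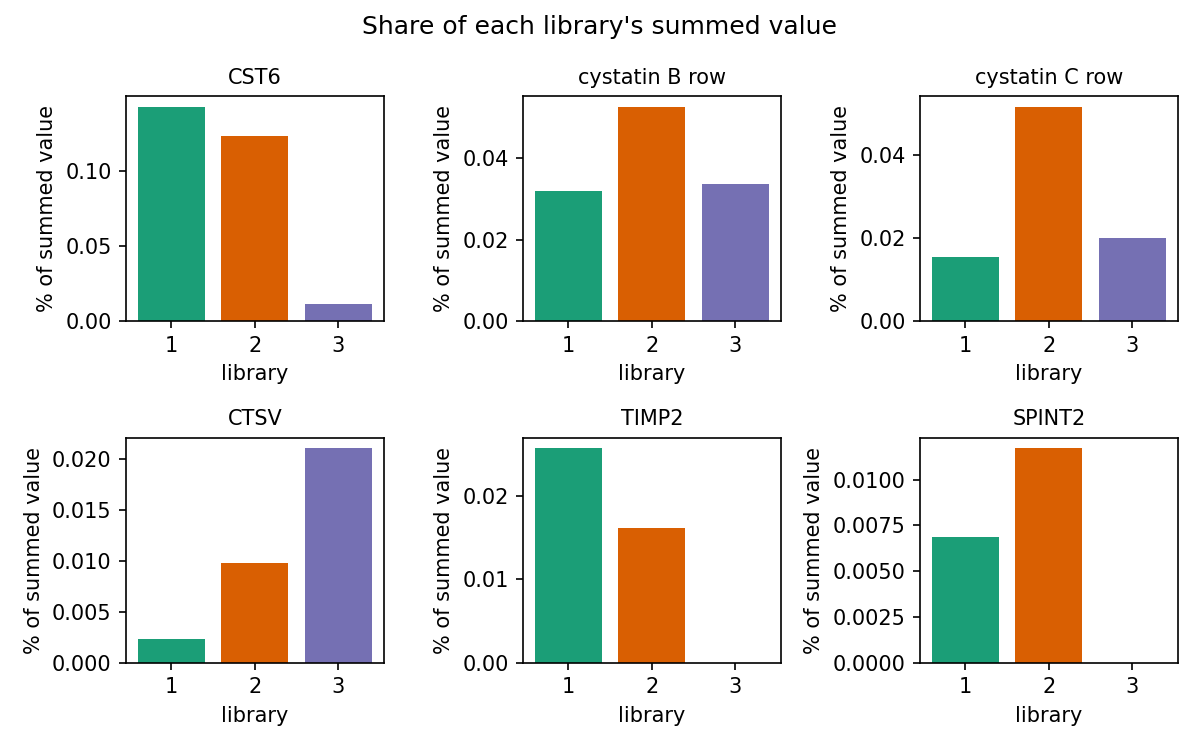
Share of each library's summed value (%, linear axes from 0, scaled separately) taken by CST6, the cystatin B and cystatin C rows, CTSV, TIMP2 and SPINT2 in libraries 1, 2 and 3, with 1 bar per library. CST6 has 0.0115% in library 3, the 2 other cystatin rows hold 0.0336% and 0.0199% there, CTSV has its highest share in library 3, and TIMP2 and SPINT2 are at 0 there.

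None of the 12 cathepsins was detected in all 3 libraries, against 3.89% of all rows. CTSV (ENSOARG00000008385), which in human is a close relative of cathepsin L, stood at 0.4, 3.9 and 2 in the 3 libraries in turn. CTSV was above the olfactory receptor percentile in libraries 2 and 3 and below it in library 1, and its share of the summed value was 0.00229%, 0.00974% and 0.021%. CTSB, cathepsin B, a widespread lysosomal cysteine protease, stood at 0, 0.6 and 2.1. Among the 9 members that reached a value of 1 anywhere, CTSB alone had its highest value in library 3 (11.1%, against 20.1% of the rows that reached 1 in a library). Library 2 was highest for the other 8 (88.9%, against 63.8% of those 4519 rows).

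CTSA, a carboxypeptidase that also protects other lysosomal enzymes, stood at 0.4, 1.6 and 0.1. CTSL, cathepsin L, was at 0, 1.3 and 0.1, so CTSV rather than CTSL carried the higher value of this pair in every library. The genes are paralogs, and the division of reads between them is uncertain. The remaining 8 cathepsins stayed below 1. CTSZ reached 0.9 in library 2 and was at 0.1 and 0 in libraries 1 and 3. CTSC, which activates granule proteases of leukocytes, was at 0.3, 0.3 and 0.4, and CTSW, of cytotoxic lymphocytes, at 0.2, 0.1 and 0.4. CTSH, CTSS, CTSF and CTSK did not exceed 0.4, and CTSO was at 0. No row named CTSD was used here.

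Cathepsins are abundant in macrophages, so leukocyte markers were set beside them. None of 27 leukocyte rows was detected, against 3.89% of all rows. A value of 1 was reached by 1, 3 and 2 of the 27 leukocyte rows in libraries 1, 2 and 3, against 9.37%, 13.6% and 7.88% of all rows. The 27 rows summed to 4.8, 7.5 and 7.1, and 11, 15 and 11 of them were at 0. Their share of the summed value was 0.0275%, 0.0187% and 0.0745%, highest in library 3. The leading rows did not share an order. The macrophage gene AIF1 stood at 0.3, 2.8 and 4.1, the antigen-presentation gene CD74 at 1.5, 1.3 and 0.1 and the macrophage gene CD68 at 0.1, 1.5 and 0. The monocyte receptor CD14 was at 0.2, 0.2 and 0.4 and the pan-leukocyte PTPRC at 0.1 in each library. The part of these cells in the cathepsin values was not tested.

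The levels of the known targets of CST6 and CST6 itself did not follow the same order. CTSV was below CST6 in libraries 1 and 2 (0.4 against 24.9 and 3.9 against 49.1) and above it in library 3 (2 against 1.1). CTSL and the legumain gene LGMN, which stood at 0, 1.4 and 0.1, were below CST6 in every library.

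**Figure D3:**
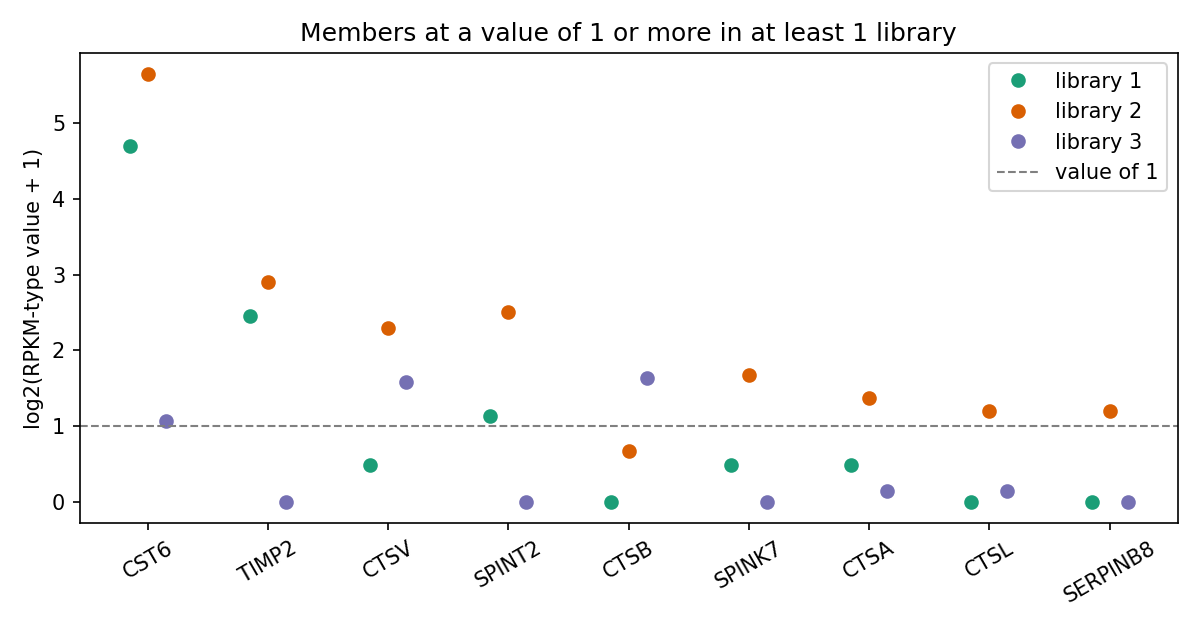
Level, as log2(RPKM-type value + 1), of the 9 members that reached a value of 1 in at least 1 library, with 1 point per library and the dashed line at a value of 1. CST6 is above the line in all 3 libraries; CTSV and CTSB are higher in library 3 than in library 1, while TIMP2, SPINT2 and SPINK7 are at 0 in library 3.

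Of the TIMPs, TIMP2 (ENSOARG00000003264), which inhibits metalloproteinases and helps the membrane enzyme MMP14 to activate MMP2, stood at 4.5, 6.5 and 0. TIMP2 ranked 391st and 693rd among all rows in libraries 1 and 2 and was listed at 0 in library 3. TIMP3, which binds to the matrix, was at 0.1, 0.2 and 0.2, and TIMP1 was listed at 0 throughout. None of 51 metalloproteinase rows was detected, against 3.89% of all rows. This list was not restricted to TIMP targets and also held ADAM, ADAMTS and other metalloproteinase genes. MMP7, the epithelial matrilysin, led the list with 2.9, 3 and 0, ADAMTS4 followed with 0.7, 0.6 and 1.1 and ADAMTS5 with 0.7, 0.3 and 0.7. MMP7 and TIMP2 were thus both listed at 0 in library 3. MMP2 was at 0, 0 and 0.1, MMP14 at 0.2, 0.2 and 0.1 and MMP9 at 0.3, 0.2 and 0, these 3 being named for their tie to the TIMPs.

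SPINT2 (ENSOARG00000005552), a membrane inhibitor of the epithelial proteases matriptase and prostasin, stood at 1.2, 4.7 and 0. Its relative SPINT1 was at 0.1, 0.5 and 0.1, SPINT3 at 0.4, 0.3 and 0 and SPINT4 at 0, 0 and 0.2. The Kazal-type SPINK7 was at 0.4, 2.2 and 0, and the other 8 SPINK rows were listed at 0 in all 3 libraries. In library 1 SPINT2 lay below the olfactory receptor percentile of 1.45. The matriptase gene ST14 was at 0, 0.1 and 0 and the prostasin gene PRSS8 at 0.1, 1.3 and 0.

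Zero values in library 3 were not particular to TIMP2 and SPINT2. The members at 1 or more in libraries 1 and 2 were CST6, TIMP2 and SPINT2, and 2 of these 3 were listed at 0 in library 3, against 314 of 1838 rows (17.1%) in the whole table. Below 1 in library 3 were the same 2 of 3 members, against 857 of 1838 rows (46.6%).

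The 28 serpins were the most numerous family and were low in each library. SERPINB8, an intracellular serpin known to inhibit furin, was the only one to reach 1 in any library, at 0, 1.3 and 0. Of all rows, 17.9% reached 1 in at least 1 library. SERPINF1, the pigment epithelium-derived factor, stood at 0.3, 0.1 and 0.8. SERPINH1, the collagen chaperone of the endoplasmic reticulum, was at 0.1, 0.8 and 0.1. Both peaked in different libraries and stayed below the olfactory receptor percentile in each.

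Among the other serpins, SERPINB5 (maspin, of epithelia) was at 0, 0.6 and 0 and SERPINA11 at 0, 0.1 and 0.6. The granzyme inhibitor SERPINB9 was at 0.2, 0.5 and 0.2. Several serpins known mainly as liver and plasma proteins were near the rounding limit. SERPINA1 (antitrypsin) was at 0.1 in each library, SERPINC1 (antithrombin) at 0.2, 0.2 and 0.1 and SERPING1 (C1 inhibitor) at 0.2, 0.1 and 0.1. SERPINA7 (0.1, 0.1 and 0.3), SERPINA10 (0, 0.2 and 0.3) and SERPINA6 (0, 0.1 and 0.2) were highest in library 3. SERPINE2, a nexin that inhibits thrombin and plasminogen activators, was at 0.1 in each library. The angiotensinogen row AGT, a serpin without inhibitory function that the name rule did not take, was at 0.2, 0.1 and 0.1. SERPINA4, SERPIND1 and SERPINI2 were listed at 0 throughout.

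By summed level of the rows taken by name, the order of the families changed between libraries. The 12 cathepsins summed to 1.6, 9.8 and 5.2 in libraries 1, 2 and 3, the 6 cystatins to 25.6, 49.8 and 1.5 and the 28 serpins to 3.1, 6.2 and 3.8. Among these rows, cystatins led in libraries 1 and 2, and cathepsins led in library 3. With the cystatin rows outside the name rule added, a choice made after their values were seen, cystatins were above cathepsins in every library. TIMPs summed to 4.6, 6.7 and 0.2, and SPINK and SPINT rows to 2.1, 7.7 and 0.3.

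The difference of log2(sum + 1), cathepsins minus cystatins, was -3.35, -2.23 and 1.31 in libraries 1, 2 and 3. Its mean of -1.43 ± 2.44 (SD, n = 3) did not pass the test (exact sign-flip permutation test, two-sided, p = 0.5, adjusted p = 0.75 over the 3 pairs of families). Cystatins minus serpins was 2.7, 2.82 and -0.94, with a mean of 1.53 ± 2.14 (SD, n = 3; exact p = 0.5, adjusted p = 0.75). Cathepsins minus serpins was -0.66, 0.58 and 0.37, with a mean of 0.10 ± 0.66 (SD, n = 3; exact p = 1, adjusted p = 1). The smallest p that 3 libraries allow is 0.25, so no such comparison could pass 0.05. Without the leading member of each family, cathepsins minus cystatins was 1.33 (exact p = 0.25). Among the rows taken by name, the lead of the cystatins in libraries 1 and 2 thus rests on CST6. The cystatin B row, outside the name rule, by itself stood at 5.6 and 21 there, above the cathepsin sums of 1.6 and 9.8.

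**Figure D4:**
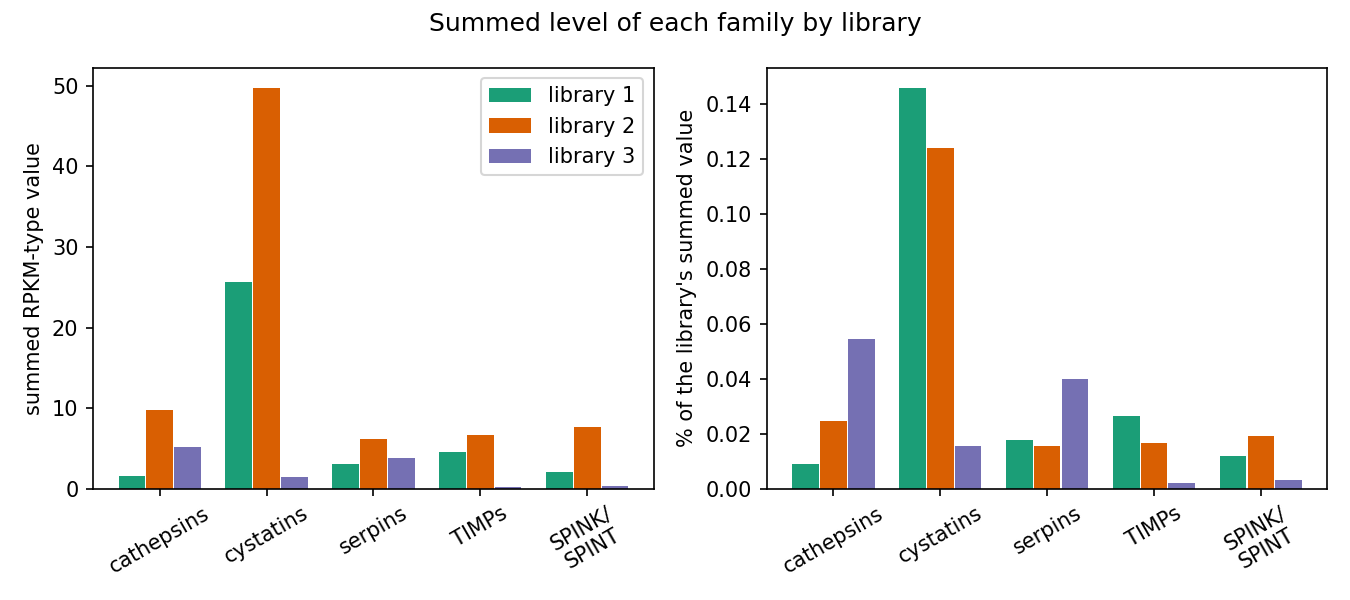
Summed RPKM-type value (left) and share of the library's summed value in % (right) of the 12 cathepsins, 6 cystatins, 28 serpins, 3 TIMPs and 13 SPINK or SPINT rows, with 1 bar per library and axes from 0. The 6 cystatins taken by name reach 25.6 and 49.8 in libraries 1 and 2 and 1.5 in library 3, where cathepsins have 5.2.

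In libraries 1, 2 and 3, all 62 members together took 0.212%, 0.2% and 0.115% of the summed value. CST6 held 67.3%, 61.2% and 10% of the members' sum. Without CST6 the other 61 members took 0.0692%, 0.0776% and 0.104%, and library 3 was then the highest. Their values, however, summed to 12.1, 31.1 and 9.9, which was lowest in library 3. Most of these rows lay below 1, and an equal low value is a larger share of a library with a smaller summed value. SERPINE2, at 0.1 in each library, thus took 0.000572%, 0.00025% and 0.00105%. By share, cathepsins took 0.00915%, 0.0245% and 0.0546% and serpins 0.0177%, 0.0155% and 0.0399%, both highest in library 3. The median log2 share ratio of library 3 to libraries 1 and 2 was 0.57 over the 981 detected rows. Among such rows, which by definition reach 1 in library 3, a higher share was thus common in library 3. TIMPs took 0.0263%, 0.0167% and 0.0021%, and SPINK and SPINT rows 0.012%, 0.0192% and 0.00315%, both lowest there.

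Other genes of proteolysis were also seldom detected. Across 5 lists of related genes, 1 of 215 rows was detected (0.465%, against 3.89% of all rows), and 30 reached a value of 1 in at least 1 library (14%, against 17.9% of all rows). Of 50 lysosomal genes other than cathepsins, the detected one was CD164, a sialomucin of endosomes and lysosomes, at 2.9, 7.3 and 2.8. M6PR, a receptor that delivers enzymes to the lysosome, stood at 2.8, 6.9 and 0, and PLBD1, a phospholipase-like protein, at 0.1, 7.6 and 1.6. None of 58 serine protease rows was detected, and PCSK2 (0.7, 0.4 and 1.5), KLK5 (1, 0.6 and 0.4) and PRSS23 (0.3, 1.1 and 0.3) led them.

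None of 19 calpain and caspase rows was detected. The calpain small subunit CAPNS1 stood at 1.1, 1.5 and 0.9 and the apoptotic protease CASP6 at 0.5, 0.8 and 1.6. Of 37 rows for inhibitors of other classes none was detected either. WFDC2, an inhibitor-like protein of epithelial secretions, stood at 1, 4 and 0, SPOCK2 at 1, 0.9 and 1.6 and BIRC3, an inhibitor of apoptosis, at 0.4, 0.6 and 1.8. WFDC2 was listed at 0 in library 3, as TIMP2 and SPINT2 were.

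Markers of liver and plasma proteins, and of mesenchyme, were examined for the serpins and TIMPs that such cells make. Of 19 liver and plasma rows, 1 was detected (5.26%, against 3.89% of all rows), the apolipoprotein APOA1 at 6, 10.3 and 6.3. APOA2 stood at 0.9, 5.4 and 2.9, AHSG at 0, 0.4 and 1.8 and ALB at 0.5, 0.4 and 0.4. The list took 0.0561%, 0.0457% and 0.154% of the summed value. None of 16 mesenchyme rows was detected, against 3.89% of all rows. The mesenchyme rows took 0.0326%, 0.0235% and 0.0136%. VIM stood at 3.4, 4.5 and 0.1, TAGLN at 1.1, 2.5 and 0.1 and DCN at 0.3, 0.8 and 0.2. Of the 10 lists examined, 7 had their highest share in library 3, and 2, those of uterine epithelium and mesenchyme, had their lowest there. Library 3 had the smallest summed value, so an equal low value gave a larger share there. The part of these lists in the family values was not tested.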

How the data were processed

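RNA of vesicles precipitated from 0.2 µm-filtered medium was made into full-length cDNA libraries from 5 ng and sequenced as 50 bp read pairs, per the labels' protocols. Per the submitters' processing notes the genome build is Oar_v3.1, and no source used here names an aligner or counting program. No unit is named in the file. The authors deposited values rounded to 1 decimal, read here as RPKM (FPKM would look alike) because no U6 row stood at 0.1 or 0.2 although 7418 to 7803 of 24185 other rows did, so that values step with gene length. Gene lengths were not used, so counts could not be recovered. Columns were matched to libraries by title, numbered in label order.

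Members and lists were chosen with earlier results of these data known. The naming rule took members at 1 or more in 2 or 3 libraries, a fixed set of symbols and the leading 3 rows of each list; genes beyond this are said to be so or illustrate a family. A few genes under this rule are not reported here. CST3, CSTB, CTSD and CTSL1 have no row of that name in the table used here. Summed levels were compared by exact sign-flip permutation tests (Python 3.11.15, pandas 2.3.3), whose code was checked on short typed examples. The detection count and the U6 step were checked on simulated data. Alternatives were other thresholds, pseudocounts, scaling and left-out libraries.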

Additional observations from a re-analysis of the deposited data

How the results depend on the processing

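The number of detected members was 1 at a detection value of 0.5 (7.56% of all rows), with each library scaled to the same summed value (4.25%) and with copies of a name summed (3.99%). No member name had a numbered copy, so summing copies could not change the count of members. The number was 0 at a detection value of 2 (1.89% of all rows), 4 when 2 libraries sufficed (9.02% of all rows), and 1 to 3 with a library left out (4.45% to 7.29% of all rows). It was 3 when rows recognised by description were added (3.89% of all rows were detected), an alternative chosen after seeing the data. Without the member with the highest mean in each family, cathepsins minus cystatins reversed to 1.33, cathepsins minus serpins to -0.29 and cystatins minus serpins to -1.61; the first and last of these differences then lack CST6. With a library left out, cathepsins minus cystatins ranged from -2.79 to -0.46, cystatins minus serpins from 0.88 to 2.76 and cathepsins minus serpins from -0.14 to 0.48. A pseudocount of 0.1, scaling and the rows recognised by description kept the direction of all 3 differences. With the rows recognised by description, cathepsins minus cystatins was -2.39 (exact sign-flip permutation test, p = 0.25) and was negative in every library. Restriction to detected members left no row in either family for cathepsins minus serpins, which was not run. No paired analysis was possible because all libraries belonged to 1 group. Rounding to 1 decimal and unknown read numbers limit the low values.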
